A study of Mus musculus with 4 samples.

Results

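The TGF-beta ligands, receptors and SMADs were examined in 4 mouse mammary tumor cell lines by RNA sequencing. The members were chosen by symbol: the ligand genes Tgfb1, Tgfb2 and Tgfb3, the receptor genes Tgfbr1, Tgfbr2 and Tgfbr3, the SMAD genes Smad2, Smad3 and Smad7, and the target gene Tgfbi. All 10 members were present among the 38713 genes of the table, and all 10 were among the 12998 genes that passed the filter on low values, which required at least 1 FPKM in at least 2 libraries. FPKM is the number of mapped fragments scaled by transcript length and by the mapped total of the library, so levels of different genes can be compared.

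Every line was established from a C57BL/6 mouse tumor that arose after Wap-Cre, a recombinase driven by a milk protein promoter active in mammary epithelium during lactation, deleted floxed Trp53. The 2 JNK_WT lines (replicates 1 and 2, genotype p53-/-) carried intact JNK genes. The 2 JNK_KO lines (replicates 1 and 3, genotype p53-/- JNK-/-) had also lost floxed Mapk8 and Mapk9, which encode JNK1 and JNK2. Each line came from its own tumor, was passaged on collagen I and then on plain dishes, and gave 1 library. Mouse ages were not given in the sources used here.

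TGF-beta is secreted in a latent form and is released from the matrix before it binds the type II receptor TGFBR2, which then activates the type I receptor TGFBR1. TGFBR1 phosphorylates SMAD2 and SMAD3, which enter the nucleus with SMAD4 and change transcription, while SMAD7 is induced by the signal and blocks the receptor. In mammary epithelium the pathway restrains proliferation, and in tumor cells it can promote a mesenchymal state.

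The deleted genes and the cell type were examined first. Mapk8 measured 23.9 FPKM in JNK_WT replicate 1, 19.1 in JNK_WT replicate 2, 4.30 in JNK_KO replicate 1 and 4.27 in JNK_KO replicate 3, a log2 difference of -2.08 (limma adjusted p-value 0.191). Mapk9 was likewise lower, with 29.7 and 24.3 FPKM in JNK_WT against 12.6 and 8.66 FPKM in JNK_KO lines. Trp53, deleted in both genotypes, had 1.55 and 4.15 against 5.72 and 4.28 FPKM. The transcripts that remained were not resolved by exon here, so these gene-level values do not show the deleted exons. All 17 epithelial markers listed for the check were at 1 FPKM or more in every line. The leukocyte list of 12 genes summed to between 1.34 and 4.86 FPKM per line, with Ptprc at or below 0.0134 FPKM. Its genes at 1 FPKM or more included Cd53 in JNK_KO replicate 3, at 2.67 FPKM, and Csf1r in JNK_WT replicate 1 and JNK_KO replicate 3, at 1.82 and 1.23 FPKM. The endothelial list of 10 genes had only Egfl7 at 1 FPKM or more. The summed FPKM of all genes ranged from 775960 to 921595 per line. With 2 lines per genotype, precision is limited by how far lines of 1 genotype differ.

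The clearest difference among the members lay in the ligand Tgfb2. Its window upstream of the start site and that of Tgfb1, the ligand with the highest mean level over the 4 lines, are shown because they hold different motifs. Each covers the 250 bases before the RefSeq start (build GRCm38.p6), written 5′ to 3′ on the strand of the gene. Capitals mark motif matches on either strand. The motif of AP1 factors was searched as TGANTCA, where N is any base. The core motif of ATF and CREB factors was searched as TGACG. The E-box was searched as CACGTG and the TATA box as TATAAA. The core of the box that SMAD proteins bind was searched as CAGAC. The GC box was searched as GGGCGG. No base lay in matches to more than 1 of these motifs.

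Tgfb2, chr1:186705990-186706239, minus strand: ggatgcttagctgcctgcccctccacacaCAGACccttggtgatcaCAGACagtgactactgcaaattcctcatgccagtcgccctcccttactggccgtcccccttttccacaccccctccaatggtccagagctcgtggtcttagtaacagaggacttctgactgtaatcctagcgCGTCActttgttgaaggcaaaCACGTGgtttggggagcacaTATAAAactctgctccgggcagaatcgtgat
Tgfb1, chr7:25686752-25687001, plus strand: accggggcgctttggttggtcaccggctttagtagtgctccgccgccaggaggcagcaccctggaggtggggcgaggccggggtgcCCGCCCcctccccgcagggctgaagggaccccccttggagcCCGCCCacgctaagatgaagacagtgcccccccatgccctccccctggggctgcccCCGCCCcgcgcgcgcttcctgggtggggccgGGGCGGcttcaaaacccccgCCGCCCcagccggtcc

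The Tgfb2 window held a TATA box, an E-box, 1 match to TGACG and 2 to CAGAC, and no GC box. Its first matched base was 31 bases before the start for the TATA box, 51 for the E-box and 72 for TGACG. The Tgfb1 window held 5 GC boxes and no match to the other motifs. Its GC content was 75.2%, against 53.6% for Tgfb2 and a median of 52.4% over 32851 windows of the same length. Among all those windows, 6.75% held TGANTCA, 17.8% TGACG, 6.02% CACGTG, 12.4% TATAAA, 42.2% CAGAC and 32.7% GGGCGG. Windows were found for 6 of the 10 members, and none of these held TGANTCA. A match is a run of letters and was not measured as a binding site in these cells.

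The largest difference among the ligands was that of Tgfb2. Tgfb2 (mm10 chromosome 1, 186622792 to 186705989, minus strand) encodes TGF-beta 2, an isoform that needs the co-receptor TGFBR3 to bind its receptor well. Tgfb2 measured 1.19 FPKM in JNK_WT replicate 1, 0.828 in JNK_WT replicate 2, 8.45 in JNK_KO replicate 1 and 4.68 in JNK_KO replicate 3. Both JNK_KO lines lay above both JNK_WT lines. In log2(FPKM + 1) the difference between genotype means was wider than that between the lines of either genotype. Means with SD were 1.01 ± 0.254 FPKM for JNK_WT and 6.57 ± 2.66 FPKM for JNK_KO (n = 2 each), a 6.51-fold higher level in JNK_KO lines. In such bulk RNA a change in the number of expressing cells and in RNA per cell cannot be told apart. On the log2(FPKM + 1) scale, which understates the change of a low gene, the difference was 1.87 (SE 0.39), with an unadjusted limma p-value of 0.0066 and an adjusted p-value of 0.347 over all genes tested. Tgfb2 therefore did not pass the threshold for a call, and the adjusted p-value lay between 0.297 and 0.598 under the other settings of the fit that kept all 4 lines. Tgfb2 reached the filter through the JNK_KO lines, since only 1 JNK_WT line was at 1 FPKM or more. A share of 3.22% of tested genes had a larger absolute difference. The 700 tested genes of chromosome 1 had a median shift of 0.05 relative to all genes.

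Tgfb1 (chromosome 7, 25687002 to 25705077, plus strand), the most studied isoform, measured 22.8 FPKM in JNK_WT replicate 1, 48.0 in JNK_WT replicate 2, 32.9 in JNK_KO replicate 1 and 19.8 in JNK_KO replicate 3. The highest and the lowest line thus bracketed the others with a line of each genotype inside, and the log2 difference of -0.36 (SE 0.48) was smaller than the 1.04 between the JNK_WT lines. Tgfb3 (chromosome 12, 86056745 to 86079041, minus strand), an isoform with roles in involution and palate closure, measured 15.6 FPKM in JNK_WT replicate 1, 10.1 in JNK_WT replicate 2, 8.46 in JNK_KO replicate 1 and 27.1 in JNK_KO replicate 3. The JNK_KO lines therefore held both extremes of Tgfb3, and its log2 difference was 0.27 (SE 0.61). The 413 tested genes of chromosome 12 had a median shift of -0.42 relative to all genes.

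**Figure D1:**
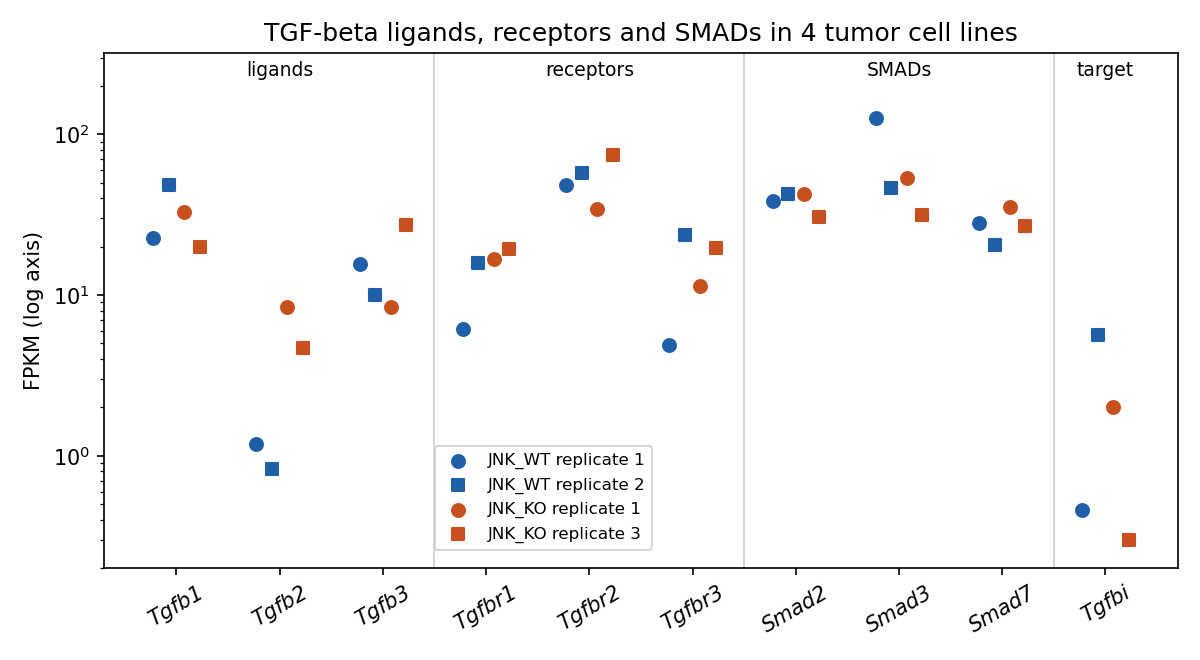
FPKM of the 10 members on a log axis, with 1 point per line: blue for JNK_WT, orange for JNK_KO, circles for replicate 1 and squares for the other replicate. Tgfb2 lies at 0.828 and 1.19 FPKM in JNK_WT and at 4.68 and 8.45 FPKM in JNK_KO lines, whereas the colours are mixed for most other members.

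The sum over the 3 ligand genes averaged 49.2 ± 13.7 FPKM for JNK_WT and 50.7 ± 1.27 FPKM for JNK_KO (SD, n = 2 each). Within that sum Tgfb2 made up 3.0% and 1.41% in the JNK_WT lines and 17.0% and 9.07% in the JNK_KO lines, with no overlap. The share of Tgfb1 was 57.6% and 81.5% in the JNK_WT lines and 66.0% and 38.4% in the JNK_KO lines, where groups overlapped. Tgfb3 was the largest ligand transcript in JNK_KO replicate 3, at 52.5%. For such a single quantity the smallest two-sided p-value of an exact permutation test with 2 lines against 2 is 0.333, so none of these shares could pass a threshold on its own.

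**Figure D2:**
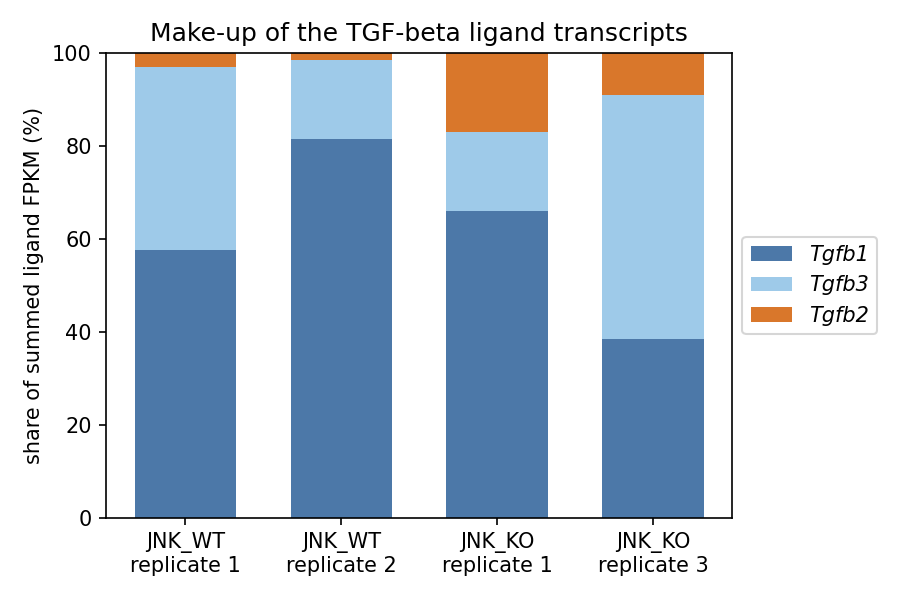
Stacked bars giving the percent of summed Tgfb1, Tgfb2 and Tgfb3 FPKM in each line. The orange part, Tgfb2, is 3.0% and 1.41% of the bar in JNK_WT lines and 17.0% and 9.07% in JNK_KO lines, while the Tgfb1 and Tgfb3 parts vary between lines of the same genotype.

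Of the receptors, Tgfbr1 was higher in both JNK_KO lines than in either JNK_WT line, although by little at the nearest pair. Tgfbr1 (chromosome 4, 47353222 to 47414931, plus strand), the type I receptor kinase, measured 6.14 FPKM in JNK_WT replicate 1, 15.9 in JNK_WT replicate 2, 16.7 in JNK_KO replicate 1 and 19.3 in JNK_KO replicate 3. Its log2 difference was 0.79 (SE 0.49, limma adjusted p-value 0.874), and JNK_WT replicate 1 set its size: without that line the difference was 0.17, and without JNK_WT replicate 2 it was 1.41. Tgfbr2 (chromosome 9, 116084293 to 116175360, minus strand), the type II receptor that binds ligand, was the most abundant receptor transcript in every line. Tgfbr2 measured 48.4 FPKM in JNK_WT replicate 1, 57.1 in JNK_WT replicate 2, 34.1 in JNK_KO replicate 1 and 74.0 in JNK_KO replicate 3, a log2 difference of -0.06 (SE 0.43). The JNK_KO lines enclosed the JNK_WT lines. Tgfbr3 (chromosome 5, 107106570 to 107289629, minus strand), betaglycan, a co-receptor that presents TGF-beta 2, measured 4.92 FPKM in JNK_WT replicate 1, 23.5 in JNK_WT replicate 2, 11.4 in JNK_KO replicate 1 and 19.7 in JNK_KO replicate 3. Here the JNK_WT lines enclosed the JNK_KO lines, and the difference of 0.41 (SE 0.77) was well under the 2.05 between the JNK_WT lines. Transcripts of Tgfbr2 exceeded those of Tgfbr1 by 7.88 and 3.6 times in the JNK_WT lines and by 2.04 and 3.84 times in the JNK_KO lines.

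The SMAD genes were expressed at 20.5 FPKM or more in all lines. Smad2 (chromosome 18, 76241580 to 76310963, plus strand), a receptor-activated SMAD, varied least of the members, with levels of 38.3 FPKM in JNK_WT replicate 1, 42.6 in JNK_WT replicate 2, 42.6 in JNK_KO replicate 1 and 30.6 in JNK_KO replicate 3. Its highest level was 1.39 times its lowest, and its log2 difference was -0.16 (SE 0.27). Smad3 (chromosome 9, 63646767 to 63757994, minus strand), the other receptor-activated SMAD and one that binds DNA directly, measured 126 FPKM in JNK_WT replicate 1, 46.0 in JNK_WT replicate 2, 53.1 in JNK_KO replicate 1 and 31.4 in JNK_KO replicate 3. JNK_WT replicate 1 stood apart from the other lines, which overlapped between genotypes. The log2 difference of -0.88 (SE 0.58, limma adjusted p-value 0.889) was -0.17 without JNK_WT replicate 1. Smad7 (chromosome 18, 75367529 to 75395935, plus strand), the inhibitory SMAD, measured 28.2 FPKM in JNK_WT replicate 1, 20.5 in JNK_WT replicate 2, 35.5 in JNK_KO replicate 1 and 26.7 in JNK_KO replicate 3, a log2 difference of 0.35 (SE 0.30) with overlapping groups. The ratio of Smad7 to Smad3 transcripts was 0.224 and 0.445 in the JNK_WT lines and 0.669 and 0.851 in the JNK_KO lines. Groups did not overlap for this ratio, although they did for each gene alone. The ratio was chosen after values were seen. With 2 lines against 2, the smallest two-sided p-value of an exact permutation test is 0.333, so it could not pass a threshold.

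Tgfbi (chromosome 13, 56609523 to 56639562, plus strand), which encodes a matrix protein named for its induction by TGF-beta, was the least abundant member on average. Tgfbi measured 0.460 FPKM in JNK_WT replicate 1, 5.66 in JNK_WT replicate 2, 2.00 in JNK_KO replicate 1 and 0.299 in JNK_KO replicate 3. Its highest level was 18.9 times its lowest, the widest range of the members, and each genotype held a high and a low line. The log2 difference was -0.66 (SE 0.89), against 2.19 between the JNK_WT lines.

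**Figure D3:**
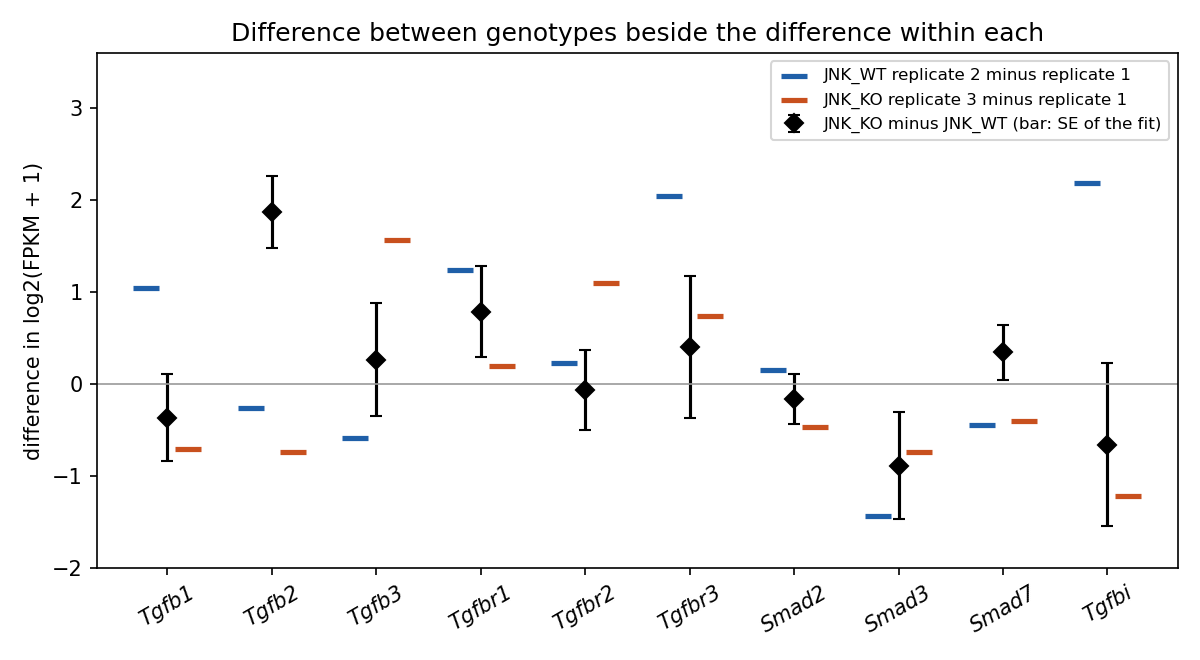
For each member, the black diamond is the JNK_KO minus JNK_WT difference in log2(FPKM + 1) with the SE of the fit, and the dashes are the differences between the lines of 1 genotype (blue JNK_WT, orange JNK_KO). Only for Tgfb2, at 1.87, does the diamond lie farther from 0 than both dashes.

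Across the members, 0 of 10 were called at an adjusted p-value under 0.05 with an absolute log2 difference over 0.75, as were 0% of all tested genes, and 1 of 10 (Tgfb2) had an unadjusted p-value under 0.05, against 7.63% of all tested genes. An absolute log2 difference over 0.75 was seen for 3 of 10 members (Tgfb2 and Tgfbr1 higher, Smad3 lower), where 15.7% of all tested genes had one (9.25% higher and 6.43% lower). Just inside this threshold was Tgfbr1 at 0.79 and just outside it Tgfbi at -0.66. Groups did not overlap for 2 of 10 members, beside 35.0% of all tested genes (18.3% higher and 16.7% lower). The median log2 difference of the members was 0.10, beside 0.01 for all genes, and their median absolute difference was 0.39, beside 0.27. The median of the members was 0.32 without JNK_KO replicate 1 and -0.17 without JNK_WT replicate 1. The genotype difference exceeded the difference within both genotypes for 1 of 10 members, Tgfb2, and for 23.6% of all tested genes. The JNK_WT lines were farther apart than the JNK_KO lines for 6 of 10 members, close to the 58.4% seen over all genes.

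Averaged over the 4 lines, levels followed the order Smad3 (64.0 FPKM), Tgfbr2 (53.4), Smad2 (38.6), Tgfb1 (30.9), Smad7 (27.7), Tgfb3 (15.3), Tgfbr3 (14.9), Tgfbr1 (14.5), Tgfb2 (3.79) and Tgfbi (2.11). The ranges over lines overlapped for all 9 pairs of neighbours in this order. The lines differed in which members they favored. JNK_WT replicate 2 was highest for Tgfb1, Tgfbr3, Smad2 and Tgfbi, and JNK_KO replicate 3 was lowest for Tgfb1, Smad2, Smad3 and Tgfbi but highest for Tgfb3, Tgfbr1 and Tgfbr2.

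Genes whose levels over the 4 lines ran most nearly in parallel were sought for a ligand, a receptor and the target, as the smallest root mean square difference between centred log2(FPKM + 1) values. For Tgfbi the nearest tested gene was Snai2, which encodes the transcription factor SLUG, at a distance of 0.19. Snai2 measured 1.52 FPKM in JNK_WT replicate 1, 13.2 in JNK_WT replicate 2, 5.42 in JNK_KO replicate 1 and 2.24 in JNK_KO replicate 3, the same order of high and low lines except at the bottom. For Tgfb1 and Tgfbr2 the nearest genes were Arsk (0.05) and Tmem51 (0.02). The distance grows with the range of a gene over the lines, so it cannot be compared between members, and over 4 lines it singles out no partner for any of them.

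The genes that hold TGF-beta latent or release it showed no common direction. Of 20 such genes 16 were tested and 0 were called. Of the 16, 3 were over 0.75 and 1 under -0.75, beside 9.25% and 6.43% of all tested genes. The median log2 difference was 0.18, which turned to -0.16 without JNK_KO replicate 3 and to -0.24 without JNK_WT replicate 2. Ltbp3, which encodes a latent TGF-beta binding protein, measured 114 FPKM in JNK_WT replicate 1, 68.1 in JNK_WT replicate 2, 50.3 in JNK_KO replicate 1 and 78.7 in JNK_KO replicate 3. The Ltbp1 and Ltbp2 groups also overlapped, with log2 differences of -0.10 and 0.71. Ltbp4 was lower in both JNK_KO lines, at 2.15 and 7.89 against 1.72 and 1.14 FPKM (log2 difference -1.13, SE 0.59, and -0.38 without JNK_WT replicate 2). Fbn1, whose product fibrillin anchors the latent complex, was at 0.348 and 0.494 FPKM in JNK_WT and at 2.87 and 1.72 FPKM in JNK_KO lines (1.19, SE 0.34, limma adjusted p-value 0.488). Fbn1 was tested only because the JNK_KO lines reached the filter, and its difference lay between 0.88 and 2.17 under the other settings. The protease gene Mmp9 was at 14 and 0.516 FPKM in JNK_WT and at 48.3 and 22.2 FPKM in JNK_KO lines (2.83, SE 1.19, limma adjusted p-value 0.711), which ranged from 1.17 without JNK_WT replicate 2 to 4.48 without JNK_WT replicate 1. Mmp9 reached the filter through the JNK_KO lines, with only 1 JNK_WT line at 1 FPKM or more. The widely used integrin chain Itgb1 differed by -0.56 (SE 0.26).

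Among secreted traps and accessory receptors, 12 of 14 genes were tested, with 0 called and a median of -0.03. Of the 12, 2 were over 0.75 and 3 under -0.75, beside 9.25% and 6.43% of all tested genes. The decorin gene Dcn, whose proteoglycan binds TGF-beta, had the largest difference, at 0.430 and 0.389 FPKM in JNK_WT and at 79.7 and 162 FPKM in JNK_KO lines (6.35, SE 0.43, limma adjusted p-value 0.0554). Dcn reached the filter through the JNK_KO lines only. It passed the threshold for a call with pseudocounts of 0.1 and 0.5 and with FPKM scaled to an equal sum, at limma adjusted p-values of 0.0472, 0.0450 and 0.0494. Under the other settings of the fit that kept every line, the limma adjusted p-value of Dcn ranged up to 0.437. The call of Dcn therefore depended on the setting. Vasn, which encodes the trap vasorin, was at 13.2 and 11.9 FPKM in JNK_WT and at 22.3 and 27.6 FPKM in JNK_KO lines (0.93, SE 0.27). Strap, which encodes a protein that binds SMAD7 and the receptors, was lower, at 284 and 199 against 145 and 110 FPKM (-0.91, SE 0.30). Strap lies on chromosome 6. The paper reports amplification of that chromosome in JNK_WT tumor cells and in only some of the JNK_KO tumor cells. The part of copy number in the Strap difference was not tested. Eng and Acvrl1, the co-receptor and type I receptor best known from endothelium, had overlapping groups, with JNK_WT replicate 1 highest for both, at 6.32 and 1.70 FPKM.

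The proteins that act on SMADs and receptors were encoded by genes with small differences. All 27 were tested and 0 were called. Of the 27, 0 were over 0.75 and 2 were under -0.75, beside 9.25% and 6.43% of all tested genes. The median absolute difference was 0.20, below that of all genes. The genes under -0.75 were Pmepa1 and Smurf2. Pmepa1, a gene induced by TGF-beta whose product holds SMAD2 and SMAD3 back, measured 211 FPKM in JNK_WT replicate 1, 160 in JNK_WT replicate 2, 33.7 in JNK_KO replicate 1 and 121 in JNK_KO replicate 3, a log2 difference of -1.5 (SE 0.65, limma adjusted p-value 0.720), which was -0.60 without JNK_KO replicate 1. Smurf2, a ubiquitin ligase for the receptors, was at 39.1 and 46.4 against 23.9 and 25.6 FPKM (-0.76, SE 0.24, unadjusted p-value 0.0285). The phosphatase gene Ppm1a differed by -0.64, and Wwp1, Ctdsp2 and Nedd4l were slightly higher, at 0.65, 0.37 and 0.32. Ppm1a lies on chromosome 12, which had a median shift of -0.42 relative to all genes. The shared partner Smad4 was even, at 48.0 and 66.4 against 63.7 and 63.6 FPKM, and the feedback gene Skil overlapped between groups with a difference of -0.21 (SE 0.41).

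Genes known to be induced by TGF-beta differed in both directions. Of 40 genes 35 were tested and 0 were called. An unadjusted limma p-value under 0.05 was seen for 3 (Zeb1 and Il11 higher, Cdh2 lower), beside 7.63% of all tested genes. In all 7 were over 0.75 and 3 under -0.75, beside 9.25% and 6.43% of all tested genes. The median was -0.0033, and groups did not overlap for 6, beside 35.0% of all tested genes. Zeb1, an EMT transcription factor, was at 1.97 and 1.02 FPKM in JNK_WT and at 7.44 and 5.76 FPKM in JNK_KO lines (1.63, SE 0.36). The cytokine gene Il11 was at 0.423 and 1.40 against 4.21 and 6.61 FPKM (1.77, SE 0.43). Il11 reached the filter through the JNK_KO lines, with only 1 JNK_WT line at 1 FPKM or more. The transglutaminase gene Tgm2 was at 71.5 and 25.8 against 91.6 and 124 FPKM (1.29, SE 0.54, and 0.57 without JNK_WT replicate 2). Lower in JNK_KO lines were Cdh2, or N-cadherin, at 48.2 and 14.7 against 9.19 and 1.70 FPKM (-2.41, SE 0.88, and -1.45 without JNK_KO replicate 3), the cell cycle inhibitor gene Cdkn1a at -1.16 (SE 0.64, and -0.36 without JNK_WT replicate 2), and Tagln at -0.19. Ctgf, which encodes a matrix-associated growth factor, had overlapping groups, at 286 and 566 against 86.3 and 751 FPKM (-0.65, SE 1.11). Leaving out JNK_WT replicate 1 or JNK_WT replicate 2 raised the number over the 0.75 threshold in either direction from 10 to 20. Over all tested genes that number also rose, from 2038 to 2776 without JNK_WT replicate 1 and to 3140 without JNK_WT replicate 2.

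**Figure D4:**
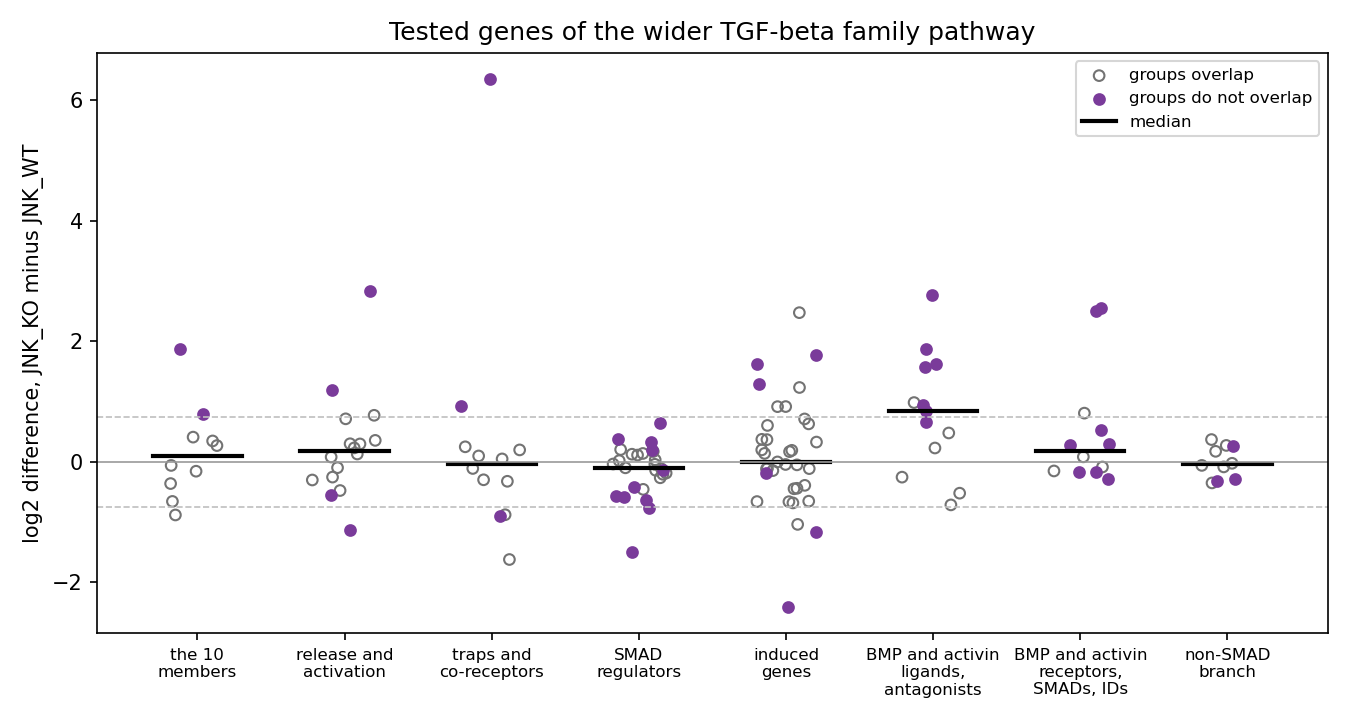
Log2 differences, JNK_KO minus JNK_WT, of the tested genes of the wider pathway, with 1 point per gene, filled where groups do not overlap, a bar at each median and broken lines at 0.75 and -0.75. The BMP and activin ligands and antagonists have a median of 0.84, while the medians of the other lists lie between -0.10 and 0.18.

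BMPs and activins form a sister branch that uses related receptors. Of 29 ligand and antagonist genes 13 were tested, with 0 called and a median of 0.84. Of the 13, 7 were over 0.75 and 0 under -0.75, beside 9.25% and 6.43% of all tested genes. Groups did not overlap for 7, higher in each case, beside 18.3% of all tested genes not overlapping and higher. The median was 0.45 without JNK_WT replicate 1. Of the 13 genes, 5 had fewer than 2 JNK_WT lines at 1 FPKM or more, and 3 had fewer than 2 JNK_KO lines there. Bmp2 and Grem1 reached the filter through the JNK_KO lines, where they were higher, with only 1 JNK_WT line at 1 FPKM or more. Bmp2 was at 0.0694 and 1.31 FPKM in JNK_WT and at 12.2 and 7.65 FPKM in JNK_KO lines (2.76, SE 0.51, limma adjusted p-value 0.295). Bmp4 was at 5.10 and 11.5 against 26.3 and 25.4 FPKM (1.62, SE 0.43), and Fst, which encodes the activin antagonist follistatin, at 5.30 and 33.2 against 48.5 and 57.9 FPKM (1.88, SE 0.85). Without JNK_WT replicate 1 the Fst difference was 0.66.

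The receptors of that branch differed little, whereas the ID genes, known targets of BMP signals that encode inhibitors of basic helix-loop-helix factors, were higher. Id1 was at 10.2 and 14.7 FPKM in JNK_WT and at 86.9 and 62.9 FPKM in JNK_KO lines (2.5, SE 0.32, unadjusted p-value 8.5e-04, limma adjusted p-value 0.187). Id3 was at 68.7 and 15.7 against 224 and 177 FPKM (2.55, SE 0.73, and 1.52 without JNK_WT replicate 2), and Id2 at 44.7 and 49.0 against 66.2 and 69.8 FPKM (0.53, SE 0.22). In this list groups did not overlap for 5 genes that were higher and 3 that were lower, beside 18.3% and 16.7% of all tested genes. The lower ones were Bmpr1a, Bmpr2 and Acvr1b, at -0.29, -0.18 and -0.17. The higher ones were the ID genes, Acvr1 at 0.29 and Smad1 at 0.30. Of the 12 genes tested in this list 0 were called. Over 0.75 were 3 (Id1, Id3 and, with overlapping groups, Bmpr1b) and under -0.75 were 0, beside 9.25% and 6.43% of all tested genes. Bmpr1b had only 1 JNK_WT line at 1 FPKM or more. In the non-SMAD branch 10 of 10 genes were tested, with 0 called and 0 beyond 0.75 in either direction, the latter beside 15.7% of all tested genes. Map3k7, which encodes TAK1, a kinase upstream of JNK, was at 18.3 and 27.6 against 33.2 and 25.8 FPKM (0.37, SE 0.32), and Shc1, Tab2 and Pard6a differed by 0.27, -0.32 and -0.28.

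Most mesenchymal markers tested were also higher in JNK_KO lines, and their part in the Tgfb2, BMP and ID values was not tested. Of 18 listed markers 13 were tested and 0 called, with a median of 1.67. Of the 13, 9 were over 0.75 and 2 under -0.75, beside 9.25% and 6.43% of all tested genes. Groups did not overlap for 8 that were higher and 1, Twist1, that was lower, beside 18.3% and 16.7% of all tested genes. Chromosome 12, where Twist1 lies, had a median shift of -0.42 relative to all genes. In 5 of the 13 (Pdgfra, Pdgfrb, Cdh11, Col6a2 and Fbln1) only JNK_KO lines were at 1 FPKM or more, so the filter admitted them through the genotype where they were high and tilts this tally and median upward. The summed list measured 1531 FPKM in JNK_WT replicate 1, 199 in JNK_WT replicate 2, 889 in JNK_KO replicate 1 and 468 in JNK_KO replicate 3, where groups overlapped. Fbln2 alone made up 1093 FPKM of the sum in JNK_WT replicate 1. Cdh11, Pdgfra and Col6a2 differed by 3.93, 3.59 and 3.46, while the fibroblast marker Dpt was listed at 0 in all lines and Lum was at or below 0.0084 FPKM. Vim was at 331 and 47.2 against 500 and 159 FPKM (1.16, SE 1.10, and -0.23 without JNK_WT replicate 2). Of the epithelial markers 4 of 17 were under -0.75 and 0 over 0.75, beside 6.43% and 9.25% of all tested genes. Their median was -0.43, which turned to 0.11 without JNK_KO replicate 1 and was -0.91 without JNK_KO replicate 3. Epcam was at 360 and 630 against 150 and 286 FPKM (-1.20, SE 0.46) and Cdh1 at 121 and 115 against 58.4 and 127 FPKM, JNK_KO replicate 1 being lowest for both. Krt8 and Krt7 were lower by -1.0 and -0.53, and Elf3 was higher by 0.70. The 9 basal markers, of which 4 were tested, 0 called and 1 under -0.75, summed to 26.3 and 736 FPKM in JNK_WT and to 38.6 and 376 FPKM in JNK_KO lines, so that replicate 1 of each genotype was low.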

How the data were processed

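The authors trimmed short single-end reads, sampled them to similar numbers, aligned them to mm10 (GRCm38) with Bowtie2 and TopHat2 2.0.14 and deposited FPKM estimated by Cufflinks 2.2.1, with 1 value per gene and line. The gene annotation is not given in the sources used here, and neither is a strand setting. GENCODE M21 places antisense or overlapping exons on Tgfb2, Tgfb3 and Tgfbr3, whose values could include such reads. The number of mapped reads behind each deposited FPKM value is not given per library in the sources used here. Of 38741 rows, 27 with symbols turned into dates and 1 without values were dropped.

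Genes with at least 1 FPKM in at least 2 libraries were tested on log2(FPKM + 1) with limma 3.58.1 (intensity trend, two-sided, Benjamini-Hochberg over 12998 genes) in R 4.3.3. A call needed an adjusted p-value under 0.05 and an absolute log2 difference over 0.75, the study's thresholds, because the Cuffdiff test of the study needs alignments. Differences are JNK_KO minus JNK_WT. The script was tested on simulated data.

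Groups and replicate numbers came from the labels. P-values measure the spread between these 4 lines only. The members and lists were chosen with earlier results of these data known, and the ratios and motifs after values were seen. Named were all members, genes set in advance by symbol, and the most different genes of each list whose groups did not overlap (3 per direction, 5 for induced genes). Bmpr1b, Grem1, Acvr1, Smad1, Dpt, Lum, Egfl7, Cd53, Csf1r, Pdgfrb, Fbln1, Fbln2, Krt5 and Krt14 were chosen after their values were seen. So were the matrix, activin and contractile genes of the closing observations. Positions are from GENCODE M21 and promoters from RefSeq. A gene set in advance is not reported here.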

Additional observations from a re-analysis of the deposited data

How the results depend on the processing

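No paired analysis was made, because each line came from its own tumor and the labels give no pairing of lines. No member was called under any of the settings tried. The number of called genes, 0 in all (992 at an unadjusted limma p-value under 0.05), became 10 and 14 with pseudocounts of 0.1 and 0.5, 15 with FPKM scaled to an equal sum, 14 without the intensity trend and 25 at an adjusted p-value threshold of 0.1. The cause was not tested.

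When a mean of 5 FPKM was required, Tgfb2 and Tgfbi were not tested, so that 1 member rather than 2 had groups that did not overlap, and the numbers over 0.75 became 2 rather than 4 for release genes and 2 rather than 1 for basal markers. Without a filter they were 2 for basal and 1 rather than 0 for leukocyte markers, from the added genes.

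Leaving out 1 replicate at a time left Tgfb2 between 1.51 and 2.24 and kept the directions of Tgfbr1 (0.17 to 1.41), Smad3 (-1.60 to -0.17) and Smad7 (0.12 to 0.57). The direction turned for Tgfb1 (-0.88 to 0.16), Tgfb3 (-0.52 to 1.05), Tgfbr2 (-0.61 to 0.49), Tgfbr3 (-0.62 to 1.43), Smad2 (-0.39 to 0.074) and Tgfbi (-1.75 to 0.44). The number of members over 0.75, 3 in all, ranged from 1 (without JNK_KO replicate 3) to 6 (without JNK_KO replicate 1). With fewer lines, groups overlap less by construction, for 4 to 8 members not at all and for 61.0% to 72.1% of genes. Genes over 0.75 ranged from 2389 to 3140, and list genes over 0.75 from 5 to 9 for release, 1 to 5 for SMAD regulators, 13 to 20 for induced genes, 2 to 10 for epithelial, 2 to 4 for basal and 0 to 1 for endothelial markers. The scalings kept every member's direction and moved the median of all genes by at most 0.081.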

Other observations

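Of the 35 tested induced genes, JNK_WT replicate 1 was the highest line for 13, JNK_WT replicate 2 for 9, JNK_KO replicate 1 for 4 and JNK_KO replicate 3 for 9. Over all tested genes these lines were highest for 26.7%, 26.9%, 24.8% and 21.7%. Among the 13 were the contractile gene Tpm1, at 1534 FPKM in JNK_WT replicate 1 and between 308 and 439 FPKM in the other lines, and Nox4, at 12.6 FPKM and between 1.84 and 5.27 FPKM. The same line was highest for Smad3, at 126 FPKM, and lowest for Tgfbr1 and Tgfbr3, at 6.14 and 4.92 FPKM. These 13 genes were counted after their values were seen and no test was made.

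The lines of 1 genotype also differed in several matrix genes of the pathway. Bgn, which encodes the TGF-beta binding proteoglycan biglycan, was at 85.1 FPKM in JNK_WT replicate 1 and between 1.13 and 3.72 FPKM in the other lines. Postn and Lox were highest in JNK_KO replicate 3, at 25.6 and 63.8 FPKM, with the other lines between 0.728 and 2.58 FPKM for Postn and between 9.57 and 18.9 FPKM for Lox. Timp3 ranged from 17.3 FPKM in JNK_WT replicate 1 to 1235 FPKM in JNK_KO replicate 3. The activin chain genes Inhba and Inhbb were likewise highest in JNK_KO replicate 3, at 47.1 and 43.7 FPKM, beside the highest Tgfb3.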
